A study of Mus musculus with 24 samples.

Results

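The genes described here are 10 mouse genes of the amino acid response that the transcription factor ATF4 drives, measured in the livers of mice in which Trib1, Cebpa, both genes or neither could be deleted. They were chosen by name, and each name matched 1 of the 54432 gene identifiers in the deposited table. The samples are whole livers of 24 male C57BL/6 mice, 6 in each of 4 groups, from which polyadenylated RNA was sequenced. The group called Trib1-KO was Trib1 Flox/Flox, the group called Cebpa-KO was Cebpa Flox/Flox, the group called DKO carried both floxed genes (Trib1;Cebpa Flox/Flox), and the group called WT was wild type. Every mouse, WT included, was injected intraperitoneally at 20 to 21 weeks of age with an adeno-associated virus (AAV) that encodes Cre, the recombinase that cuts out floxed DNA. Livers were taken 4 weeks later around midday, from mice kept on chow and fasted for 4 h. The sample descriptions name the double group Trib1;Cebpa dLSKO without spelling the letters out, and the promoter that drove Cre is not given in the sources used here. The mice were injected as 2 cohorts of 3 per group, and the columns of the table carry a letter and a number, such as B3, but no cohort.

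ATF4 is the transcription factor at the end of the integrated stress response. When an amino acid runs short the kinase GCN2, or under stress of the endoplasmic reticulum the kinase PERK, phosphorylates the translation factor eIF2α, which lowers protein synthesis in general while the Atf4 messenger RNA is translated more. ATF4 then pairs with members of the C/EBP family on composite DNA elements and raises genes that make or import amino acids, and in the liver it also raises the hormone gene Fgf21. C/EBPα, the product of Cebpa, is the main C/EBP factor of the adult hepatocyte, and the pseudokinase Trib1 brings C/EBPα to the ubiquitin ligase COP1 for degradation.

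The composite element, called a C/EBP-ATF response element, was looked for as the letters TGATGNAA on both strands of the RefSeq promoter windows (GRCm38.p6), which run from 250 bases before to 50 bases after a gene's start. Promoters were in the table for 9 of the 10 genes, and 3 of these held the letters, against 4.51% of the 27025 genes with a promoter there and 3.97% of all 32851 windows. The letters were chosen as the known element of the Asns, Chac1, Ddit3 and Trib3 promoters, so matches in Asns and Chac1 could be foreseen. The count beside these shares is therefore a description and no test. The 3 windows are shown because 2 of them belong to genes with large differences between the groups and the third to a gene for which no difference from WT passed. They are given 5′ to 3′ on the strand of the gene, with the matching letters in capitals:
Asns, chr6:7693160-7693459, minus strand: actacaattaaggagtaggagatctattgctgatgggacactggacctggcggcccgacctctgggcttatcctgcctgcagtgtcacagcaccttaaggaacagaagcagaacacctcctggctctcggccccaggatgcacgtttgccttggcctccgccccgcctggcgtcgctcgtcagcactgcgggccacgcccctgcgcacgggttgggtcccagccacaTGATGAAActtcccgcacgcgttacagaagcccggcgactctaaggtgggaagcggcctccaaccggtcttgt
Fgf21, chr7:45615441-45615740, minus strand: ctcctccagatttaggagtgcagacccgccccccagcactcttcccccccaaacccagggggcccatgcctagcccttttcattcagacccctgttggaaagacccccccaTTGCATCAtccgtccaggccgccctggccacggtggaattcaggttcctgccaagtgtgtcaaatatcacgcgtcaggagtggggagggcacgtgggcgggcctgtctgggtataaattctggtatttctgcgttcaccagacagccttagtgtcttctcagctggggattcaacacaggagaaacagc
Chac1, chr2:119350992-119351291, plus strand: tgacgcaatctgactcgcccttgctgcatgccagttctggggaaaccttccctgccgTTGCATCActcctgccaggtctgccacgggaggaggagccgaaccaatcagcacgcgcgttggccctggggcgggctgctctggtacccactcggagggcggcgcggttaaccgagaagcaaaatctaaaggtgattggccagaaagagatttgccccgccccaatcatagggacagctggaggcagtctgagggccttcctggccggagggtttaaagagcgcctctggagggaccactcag
The match in Asns read in the direction of the gene and began at position -23 relative to its start. Those in Fgf21 and Chac1 lay on the other strand, at positions -139 and -193, and had the same 8 letters. No match was found in the windows of Atf4, Atf5, Psat1, Phgdh, Psph and Mthfd2, which says only that these letters are not in those windows.

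The targeted genes were read first. Cebpa averaged 82.2 ± 17.5 normalized counts in Cebpa-KO and 82.4 ± 18.1 in DKO, against 6019 ± 1057 in WT (SD, n = 6 each). In the libraries labelled Trib1-KO, Cebpa was at 2668 ± 359, also below WT (log2 difference -1.16 ± 0.16 SE, limma adjusted p = 5.3e-06). Trib1 went against its label, at 4237 ± 358 normalized counts in the libraries labelled Trib1-KO against 1224 ± 204 in WT. It was at 732 ± 259 in DKO by label, against 333 ± 158 in Cebpa-KO. A sum over the whole gene cannot show whether the deleted stretch was lost, so these groups are written as the libraries labelled Trib1-KO and labelled DKO. The libraries held 23385900 to 27190700 normalized counts each. Of 10 hepatocyte markers 9 were found, none of them at 0 in all libraries of a group, and their summed level was 978126 to 1107925 in the libraries labelled Trib1-KO, 2711269 to 3466188 in Cebpa-KO, 2627828 to 3095478 in those labelled DKO and 2079853 to 2891241 in WT. Gene by gene against WT, none of the 9 rose and 7 fell by limma in the libraries labelled Trib1-KO. Among all genes tested, 11.8% rose and 10.9% fell there. Cebpa-KO had 2 higher and 4 lower, beside 4.60% and 5.22% of all genes. Those labelled DKO had 1 higher and 3 lower, beside 2.84% and 3.25%. At an unadjusted p under 0.05 the DKO counts became 2 higher and 4 lower, and the counts of the other comparisons stayed the same. The high sum of Cebpa-KO was mostly Alb, the albumin gene, which rose there (log2 difference 0.67 ± 0.15, limma adjusted p = 0.00383). The major urinary protein (Mup) genes, abundant secreted products of the male mouse liver, took 21.4 to 27.4% of the normalized counts in the libraries labelled Trib1-KO and 1.33 to 8.89% in all others. WT library B3 stood apart from the other WT libraries, with the lowest WT share of Mup genes (2.99%) and an end value of its group in 5 of the genes below. In whole liver, fewer cells of a type and less RNA per cell cannot be told apart.

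Where an ATF4 gene passed the test against WT, it was higher in the libraries labelled Trib1-KO and lower in Cebpa-KO and in the libraries labelled DKO. Against WT, 6 of the 10 were up in the libraries labelled Trib1-KO, namely Atf4, Atf5, Asns, Psat1, Slc1a5 and Fgf21 (limma, adjusted p under 0.05 after Benjamini-Hochberg adjustment over all genes tested), where 11.8% of all 19810 genes tested rose, 10.9% fell and 22.7% changed in either direction. In Cebpa-KO 5 of them fell, namely Atf4, Atf5, Asns, Slc1a5 and Fgf21, against 5.22% of all genes that fell, 4.60% that rose and 9.82% that changed. In the libraries labelled DKO 4 fell, namely Atf5, Asns, Psat1 and Fgf21, against 3.25% of all genes that fell, 2.84% that rose and 6.09% that changed. None of the 10 went the other way in any of these 3 comparisons with limma, nor at an unadjusted p under 0.05. The median log2 difference over the 10 genes was 0.91, -0.96 and -0.48 in the 3 comparisons in the order given, and over all genes tested it was 0.01, 0.01 and 0.00. All 3 comparisons use the same 6 WT libraries. All 10 genes passed the filter, a mean of at least 1 normalized count over all libraries.

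**Figure D1:**
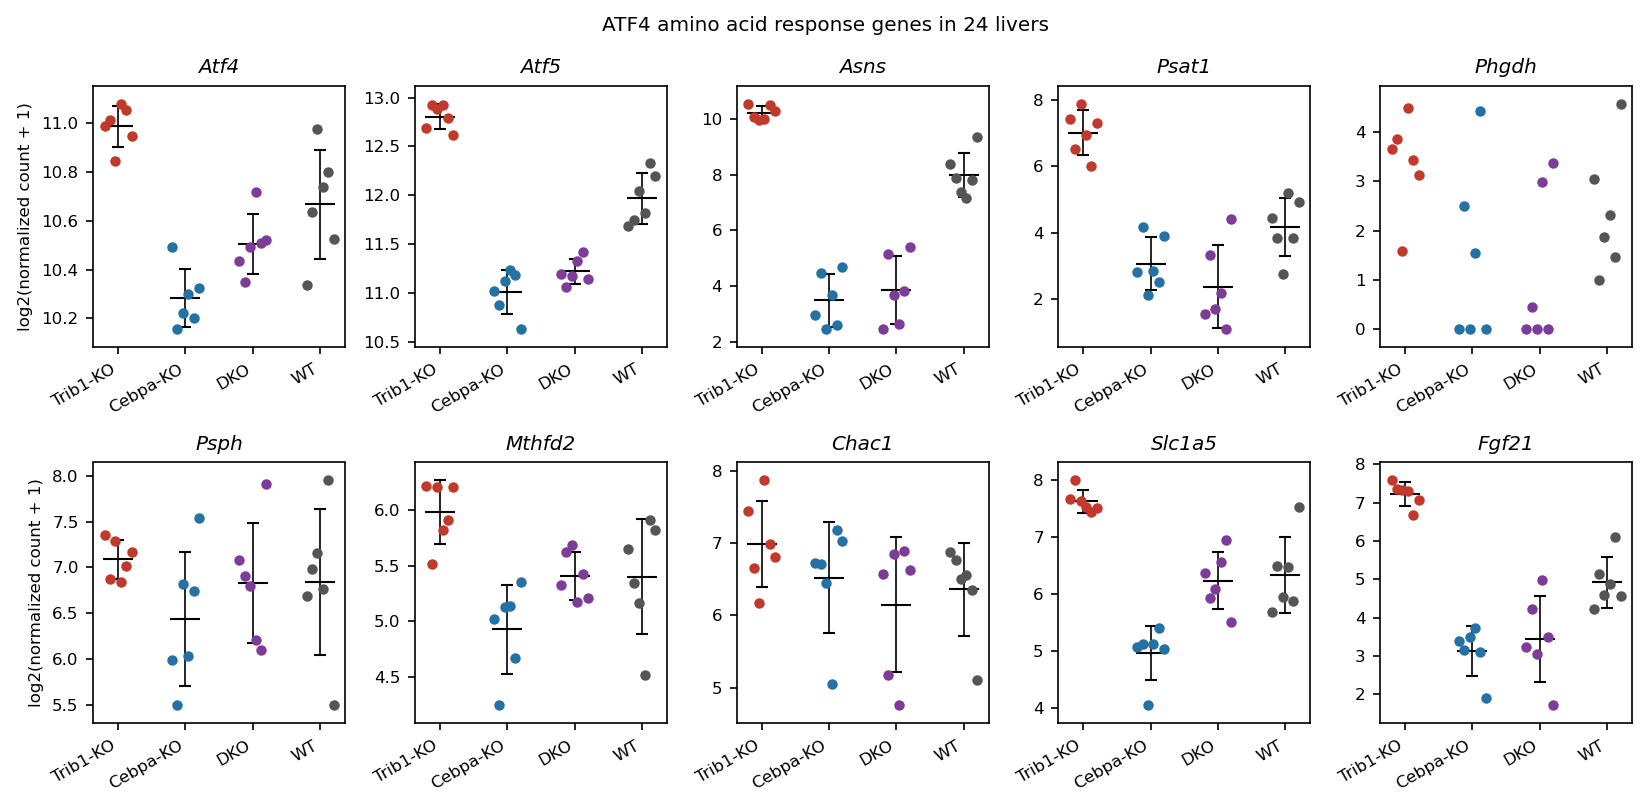
Level of each of the 10 genes in 24 livers, as log2(normalized count + 1) on axes that differ between panels and do not all start at 0. Each point is 1 library, horizontal bars are group means with the SD of 6 libraries, and Phgdh has no bars because some of its libraries are listed at 0. In Asns, Psat1, Atf5 and Fgf21 the 6 libraries labelled Trib1-KO lie above all 6 WT libraries.

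Atf4 (ENSMUSG00000042406.8, chromosome 15, 80255184 to 80257541, GRCm38, plus strand), the response's own transcription factor, differed less between the groups than Atf5 and Asns did. It lay between 1838 and 2161 normalized counts in the libraries labelled Trib1-KO (median 2048), between 1141 and 1441 in Cebpa-KO (median 1227), between 1305 and 1684 in those labelled DKO (median 1448) and between 1291 and 2013 in WT (median 1649). The WT range was the widest and overlapped each of the other groups. Atf4 was 1.24-fold higher in the libraries labelled Trib1-KO by the ratio of the means (log2 difference 0.32 ± 0.09 SE, limma adjusted p = 0.0076; 0.57 and 7.1e-05 on values scaled without the Mup genes) and lower in Cebpa-KO, at 0.760 of the WT mean (-0.38 ± 0.09, adjusted p = 0.00374). The libraries labelled DKO differed from WT by -0.16 (95% interval -0.34 to 0.01, adjusted p = 0.335), which did not pass. ATF4 is controlled mainly at translation, which RNA levels do not measure.

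Atf5 (ENSMUSG00000038539.15, chromosome 7, 44812256 to 44816658, minus strand) encodes a related factor whose messenger RNA is also translated more when eIF2α is phosphorylated. It separated the groups more cleanly than Atf4, with 6303 to 7776 normalized counts in the libraries labelled Trib1-KO (median 7336), 1591 to 2422 in Cebpa-KO (median 2154), 2134 to 2738 in those labelled DKO (median 2333) and 3301 to 5165 in WT (median 3912). The libraries labelled Trib1-KO lay above, and both groups with floxed Cebpa below, every WT library. The ratio to WT was 1.76 in the libraries labelled Trib1-KO (log2 difference 0.83 ± 0.11, limma adjusted p = 2.4e-06), 0.513 in Cebpa-KO (-0.96 ± 0.11, adjusted p = 1.3e-06) and 0.589 in those labelled DKO (-0.75 ± 0.11, adjusted p = 6.3e-05). From high to low the order was labelled Trib1-KO, WT, labelled DKO, Cebpa-KO, and the last 2 overlapped (0.21, 95% interval -0.02 to 0.43, adjusted p = 0.573).

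Asns (ENSMUSG00000029752.12, chromosome 6, 7675169 to 7693254, minus strand) encodes asparagine synthetase, which makes asparagine from aspartate with the nitrogen of glutamine, and its promoter is the first of the 3 shown above. The libraries labelled Trib1-KO, C1 to C3 and D1 to D3, had 1486, 1078, 985, 1018, 1444 and 1239.9 normalized counts. Cebpa-KO, E1 to E3 and F1 to F3, had 6.87, 21.2, 4.54, 11.8, 5.15 and 25.0, and the libraries labelled DKO, G1 to G3 and H1 to H3, had 4.53, 34.3, 11.7, 5.25, 13.3 and 41.4. WT, A1 to A3 and B1 to B3, had 329, 238, 164, 141, 226 and 653. All libraries labelled Trib1-KO stood above all WT libraries, and all 12 with floxed Cebpa stood below them, with no overlap. By the ratio of the means Asns was 4.14-fold higher in the libraries labelled Trib1-KO (log2 difference 2.23 ± 0.47, limma adjusted p = 9.0e-04), 23.5-fold lower in Cebpa-KO (-4.51 ± 0.47, adjusted p = 4.2e-07) and 15.8-fold lower in those labelled DKO (-4.13 ± 0.47, adjusted p = 2.3e-06). WT library B3 was far above the other 5 WT libraries. Without it the log2 differences from WT were 2.50, -4.24 and -3.86, and all 3 still passed (adjusted p = 2.9e-04, 1.4e-06 and 8.4e-06).

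The serine pathway turns a glycolytic intermediate into serine by the enzymes PHGDH, PSAT1 and PSPH in that order, and of the 3 genes only Psat1 passed against WT. Psat1 (ENSMUSG00000024640.9, chromosome 19, 15904678 to 15947337, minus strand) had 63.1 to 235 normalized counts in the libraries labelled Trib1-KO (median 139.8), 3.34 to 17.0 in Cebpa-KO (median 6.11), 1.13 to 20.2 in those labelled DKO (median 2.85) and 5.78 to 35.5 in WT (median 17.1). The libraries labelled Trib1-KO lay above all the rest, and the other 3 groups overlapped. Psat1 was 7.14-fold higher in the libraries labelled Trib1-KO than in WT (log2 difference 2.85 ± 0.51, limma adjusted p = 1.5e-04), the largest ratio of means among the 10 genes in that comparison. In Cebpa-KO its difference was -1.11 ± 0.51 and did not pass (adjusted p = 0.198), and in the libraries labelled DKO it fell by 1.79 ± 0.51 (adjusted p = 0.0339). That last call was lost in 7 of the 24 fits that leave out 1 library, those without A1, B1, B3, G1, G3, H1 or H2, with log2 differences from -2.20 to -1.54 and adjusted p up to 0.0858 over all 24. It was also lost with a pseudocount of 8, without the filter on low values and with only the 2 groups in the fit (adjusted p = 0.0787, 0.0581 and 0.106).

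Phgdh (ENSMUSG00000053398.11, chromosome 3, 98313170 to 98339990, minus strand), the first enzyme of the path, was close to the limit of detection. The libraries labelled Trib1-KO had 11.5, 13.6, 2.01, 21.5, 9.87 and 7.70 normalized counts, in the order used for Asns. Cebpa-KO was listed at 0 in E1, E3 and F3 and had 4.67 in E2, 1.92 in F1 and 20.7 in F2. The libraries labelled DKO were listed at 0 in G1, G3 and H2 and had 0.357 in G2, 6.96 in H1 and 9.34 in H3, and WT had 7.32, 0.985, 2.63, 3.99, 1.77 and 22.8. All groups overlapped, and single libraries (F2, B3) set the upper end of their group. No difference from WT passed, and the intervals were wide, as with 0.98 (95% interval -0.64 to 2.61, limma adjusted p = 0.427) in the libraries labelled Trib1-KO.

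Psph (ENSMUSG00000029446.14, chromosome 5, 129765558 to 129787449, minus strand), the last enzyme, had 113 to 163 normalized counts in the libraries labelled Trib1-KO (median 135), 44.0 to 185 in Cebpa-KO (median 85.4), 67.4 to 239 in those labelled DKO (median 114) and 44.1 to 246 in WT (median 116). Every group lay inside or across the WT range. Against WT its log2 difference was 0.25 (95% interval -0.47 to 0.96), -0.40 (-1.12 to 0.31) and -0.01 (-0.72 to 0.71) for labelled Trib1-KO, Cebpa-KO and labelled DKO, and none passed (limma adjusted p = 0.678, 0.564 and 0.997). The first of these changed sign without WT library B3, to -0.02 (adjusted p = 0.977).

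Mthfd2 (ENSMUSG00000005667.8, chromosome 6, 83305691 to 83325908, minus strand) encodes a mitochondrial enzyme that carries one-carbon units from serine on folate. It had 44.8 to 73.3 normalized counts in the libraries labelled Trib1-KO (median 66.1), 17.9 to 39.8 in Cebpa-KO (median 32.7), 35.0 to 50.6 in those labelled DKO (median 40.6) and 21.9 to 59.3 in WT (median 44.4). The groups overlapped WT in each case. Its log2 difference of 0.58 ± 0.22 in the libraries labelled Trib1-KO did not pass (limma adjusted p = 0.0656). It passed on values scaled to library totals without the Mup genes (0.83, adjusted p = 0.00733) and in the fits without B3 (0.66, adjusted p = 0.042), B2, C2 or E2, with adjusted p from 0.0354 to 0.188 over the 24 fits that leave out 1 library. The differences in Cebpa-KO (-0.48 ± 0.22, adjusted p = 0.212) and in the libraries labelled DKO (0.01 ± 0.22, adjusted p = 0.993) did not pass, though in Cebpa-KO it passed without B1 (adjusted p = 0.0477).

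Slc1a5 (ENSMUSG00000001918.17, chromosome 7, 16781340 to 16798274, plus strand) encodes ASCT2, an exchanger that brings glutamine and other neutral amino acids into the cell. It had 172 to 252 normalized counts in the libraries labelled Trib1-KO (median 189), 15.5 to 41.0 in Cebpa-KO (median 33.2), 44.7 to 122 in those labelled DKO (median 74.2) and 50.1 to 181 in WT (median 74.2). The libraries labelled Trib1-KO overlapped WT only through library B3, Cebpa-KO lay below all other libraries, and those labelled DKO lay across the WT range. Its mean was 2.25 times that of WT in the libraries labelled Trib1-KO (log2 difference 1.29 ± 0.27, limma adjusted p = 8.6e-04) and 2.79-fold lower than WT in Cebpa-KO (-1.36 ± 0.27, adjusted p = 0.00128). In the libraries labelled DKO the difference from WT was -0.10 (95% interval -0.66 to 0.46, adjusted p = 0.905), and without B3 it was 0.14 (adjusted p = 0.837).

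Chac1 (ENSMUSG00000027313.3, chromosome 2, 119351229 to 119354381, plus strand) encodes an enzyme that breaks down glutathione, and its promoter holds the element letters, as shown above. It had 71.3 to 232 normalized counts in the libraries labelled Trib1-KO (median 118), 32.0 to 144 in Cebpa-KO (median 104), 26.0 to 117 in those labelled DKO (median 96.2) and 33.4 to 116 in WT (median 91.4). Each group overlapped each other, and F1, G2, H1 and B3 were the low libraries, at 32.0, 35.0, 26.0 and 33.4. No difference from WT passed, with 0.63 (95% interval -0.20 to 1.46, limma adjusted p = 0.296) in the libraries labelled Trib1-KO, 0.16 (-0.66 to 0.99, adjusted p = 0.871) in Cebpa-KO and -0.21 (-1.04 to 0.61, adjusted p = 0.851) in those labelled DKO. The Cebpa-KO value turned to -0.09 without B3 (adjusted p = 0.934), and the value of the libraries labelled DKO turned to 0.06 without H1 (adjusted p = 0.965).

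Fgf21 (ENSMUSG00000030827.5, chromosome 7, 45613886 to 45615490, minus strand) encodes a hormone that the liver secretes on fasting and amino acid shortage, and its promoter is the second shown above. It had 102 to 189.9 normalized counts in the libraries labelled Trib1-KO (median 158), 2.74 to 12.3 in Cebpa-KO (median 8.71), 2.28 to 30.9 in those labelled DKO (median 9.33) and 17.7 to 68.1 in WT (median 25.9). The libraries labelled Trib1-KO lay above and Cebpa-KO below all WT libraries, while G2 and H1 of the libraries labelled DKO reached into the WT range. Fgf21 was 4.65-fold higher than WT in the libraries labelled Trib1-KO (log2 difference 2.30 ± 0.41, limma adjusted p = 1.5e-04) and 3.86-fold lower in Cebpa-KO (-1.79 ± 0.41, adjusted p = 0.0048). In those labelled DKO it fell by 1.47 ± 0.41 (adjusted p = 0.0311). That call was lost without A2, B2, G1, G3 or H3 (log2 differences from -1.78 to -1.12 and adjusted p up to 0.0874 over the 24 fits that leave out 1 library). It was lost too without the filter on low values and with only the 2 groups in the fit (adjusted p = 0.0518 and 0.12).

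**Figure D2:**
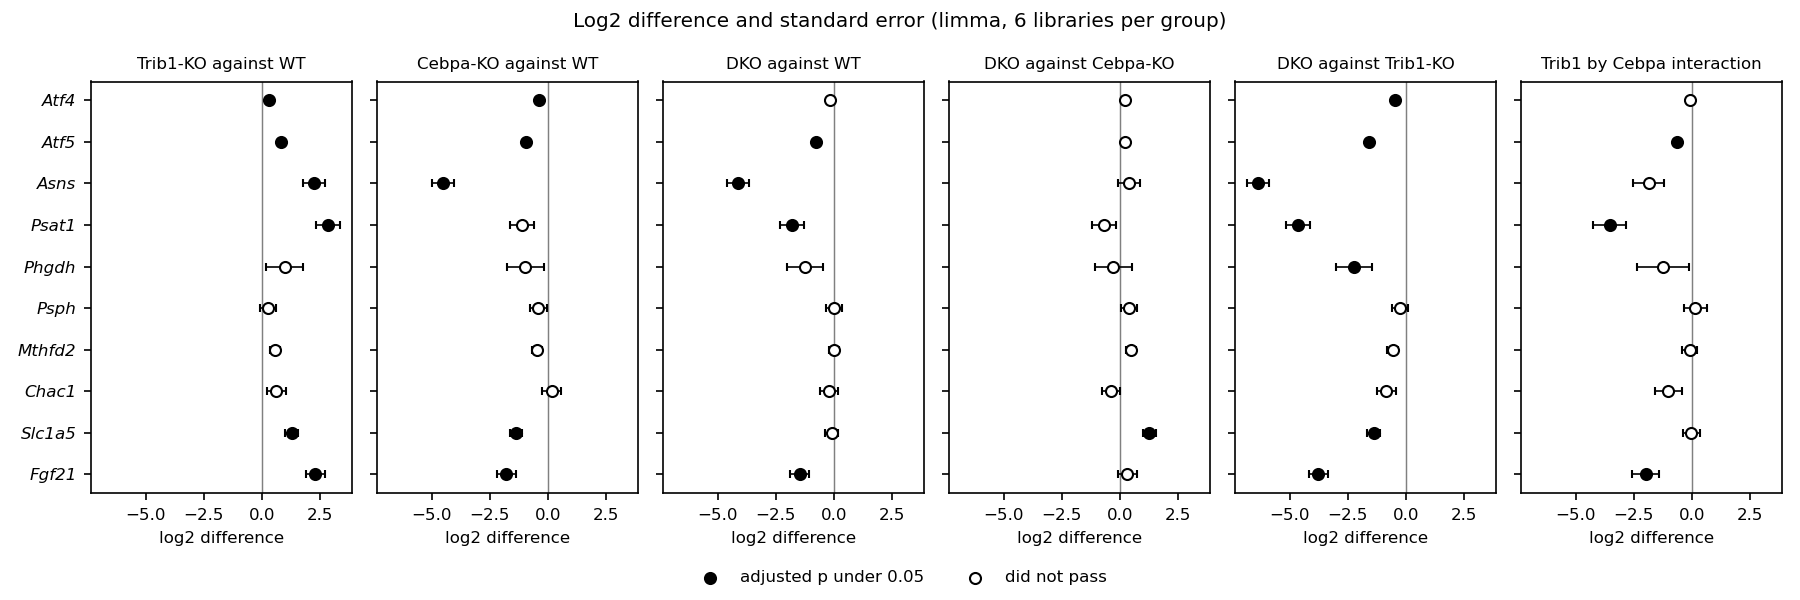
Log2 difference of each gene in the 6 comparisons, with the standard error as a horizontal line, from limma on log2(normalized count + 1) with 6 libraries per group. Filled points passed an adjusted p of 0.05 and open points did not. Asns lies furthest from 0 in Cebpa-KO against WT (-4.51) and in the libraries labelled DKO against those labelled Trib1-KO (-6.36).

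Counting genes whose 6 libraries did not overlap the 6 of WT, 4 of the 10 lay above WT in the libraries labelled Trib1-KO (Atf5, Asns, Psat1 and Fgf21), against 6.26% of all genes tested. In Cebpa-KO 4 lay below WT (Atf5, Asns, Slc1a5 and Fgf21), against 2.65% of all genes. Atf5 and Asns, 2 of the 10, lay below WT in the libraries labelled DKO, against 1.56% of all genes. Cell type markers and growth genes also moved with the libraries labelled Trib1-KO against WT, where 11.8% of all genes tested rose and 10.9% fell. Of 10 Kupffer cell and macrophage markers 7 rose and none fell by limma or at an unadjusted p under 0.05, with a summed level of 14785 to 18576 against 8448 to 14689 in WT, and none was at 0 in all libraries of a group. Of 16 cell cycle genes 12 rose and 1 fell, with a summed level of 2049 to 3264 against 1484 to 1774 in WT, and Mki67 averaged 242 normalized counts against 70.1 in WT. Of 8 stellate cell markers 4 rose and none fell by limma (1 was lower at an unadjusted p under 0.05), with a summed level of 9689 to 12912 against 7429 to 10893 in WT. In the libraries labelled DKO against those labelled Trib1-KO, 15.7% of all genes tested fell and 14.6% rose by limma. There 5 of the 8 stellate cell markers, 4 of the 10 Kupffer cell and macrophage markers and 11 of the 16 cell cycle genes fell, and 1 cell cycle gene rose. Against WT, lymphocyte markers had 2 of 7 higher in the libraries labelled Trib1-KO (summed level 489 to 816 against 199 to 403), neutrophil markers 2 of 5 (115 to 373 against 58.6 to 139, with Mpo at 0 in all WT libraries), and none of either list was lower by limma or at an unadjusted p under 0.05. Sinusoidal endothelial markers had 2 of 8 higher and 2 lower there, and cholangiocyte markers 2 of 6 lower. In Cebpa-KO the cholangiocyte markers moved both ways, with Spp1 at 3612 normalized counts against 1044 in WT and Sox9 at 34.8 against 132, and the other 4 did not pass. There 4.60% of all genes tested rose and 5.22% fell. The libraries labelled DKO also had Spp1 higher than WT (log2 difference 1.65 ± 0.21) and Sox9 lower (-1.75 ± 0.24), with Epcam lower too. Of all genes tested, 2.84% rose and 3.25% fell in that comparison. The part of these in the differences of the 10 genes was not tested.

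The libraries labelled DKO were set against those labelled Trib1-KO, both Trib1 Flox/Flox, to ask what floxed Cebpa changes there. Of the 10 genes, 7 fell (Atf4, Atf5, Asns, Psat1, Phgdh, Slc1a5 and Fgf21) and none rose with limma or at an unadjusted p under 0.05, where 15.7% of all genes fell, 14.6% rose and 30.3% changed. Asns was 65.6-fold lower by the ratio of the means (log2 difference -6.36 ± 0.47, adjusted p = 9.3e-11), Psat1 22.2-fold lower (-4.65 ± 0.51, adjusted p = 8.1e-08) and Fgf21 11.8-fold lower (-3.77 ± 0.41, adjusted p = 7.4e-08). Atf5 differed by -1.58 ± 0.11, Slc1a5 by -1.39 ± 0.27 and Atf4 by -0.48 ± 0.09 (adjusted p = 2.4e-11, 2.7e-04 and 9.0e-05), with Atf4 at -0.77 on values scaled without the Mup genes (adjusted p = 6.6e-07). These 6 genes had no overlap between the groups, against 8.74% of all genes tested that lay lower without overlap. Phgdh fell by 2.23 ± 0.79 (adjusted p = 0.0338) with overlapping groups, a call lost without C1, C2, D1, D2, G1, G2, G3 or H2 (-2.67 to -2.00 and adjusted p up to 0.0772 over the 24 fits that leave out 1 library). With a pseudocount of 8 and without the filter its adjusted p was 0.0596 and 0.0526. Mthfd2 (-0.57, adjusted p = 0.0561) and Chac1 (-0.84, adjusted p = 0.12) did not pass but did on values scaled without the Mup genes (-0.86 and -1.13, adjusted p = 0.00417 and 0.0249). Mthfd2 also passed with a pseudocount of 8, with a filter at a mean of 10, with only the 2 groups in the fit, and without B1, C2 or E2 (adjusted p from 0.0294 to 0.109 over the 24 fits that leave out 1 library).

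Between the libraries labelled DKO and Cebpa-KO, which differ in floxed Trib1 with Cebpa floxed in both, 1 of the 10 genes passed, where 0.0808% of all genes rose, 0.121% fell and 0.202% changed. Slc1a5 was 2.49-fold higher in the libraries labelled DKO (log2 difference 1.27 ± 0.27, limma adjusted p = 0.0463), with 44.7 to 122 normalized counts against 15.5 to 41.0 in Cebpa-KO. The 2 groups did not overlap, against 0.273% of all genes that lay higher without overlap, and the exact permutation p was 0.00216, 2-sided and the smallest that 6 against 6 libraries can give. The adjusted p was above 0.05 in 20 of the 24 fits that leave out 1 library, all except those without A1, B2, B3 or H3, while the log2 difference stayed between 1.08 and 1.41. It was also above 0.05 with a pseudocount of 8, without the filter and with only the 2 groups in the fit (adjusted p = 0.057, 0.0703 and 0.133). At an unadjusted p under 0.05, 3 of the 10 genes were higher and none lower, the other 2 being Atf4 (0.22, 95% interval 0.04 to 0.40, adjusted p = 0.392) and Mthfd2 (0.48, 0.02 to 0.95, adjusted p = 0.509). The intervals of Asns (0.37, -0.60 to 1.34), Fgf21 (0.32, -0.53 to 1.17) and Psat1 (-0.69, -1.74 to 0.36) were wider and included 0.

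The interaction asked whether the difference made by floxed Trib1 depends on Cebpa, as the libraries labelled DKO minus Cebpa-KO, less the libraries labelled Trib1-KO minus WT. It was below 0 in 3 of the 10 genes and above 0 in none by limma or at an unadjusted p under 0.05, where it was below 0 in 6.22% of all genes tested, above 0 in 6.35% and either in 12.6%. Psat1 had -3.54 ± 0.72 (adjusted p = 0.0013), from a difference of -0.69 with floxed Cebpa and 2.85 without. Fgf21 had -1.98 ± 0.58 (adjusted p = 0.0238) and Atf5 -0.62 ± 0.15 (adjusted p = 0.00693). With floxed Cebpa, Psat1 averaged only 8.51 normalized counts in Cebpa-KO and 6.32 in the libraries labelled DKO, and Fgf21 8.40 and 12.8. On the scale of log2(value + 1), differences at such low counts are understated. Asns, at -1.85 ± 0.66, did not pass (adjusted p = 0.0707), but did without B3 (-2.12, adjusted p = 0.0298), E3, G2 or H3 (adjusted p from 0.0247 to 0.123 over the 24 fits that leave out 1 library). With a pseudocount of 8 and on values scaled without the Mup genes it passed as well (-1.92 and -2.10, adjusted p = 0.0106 and 0.026). Slc1a5 had -0.02 (95% interval -0.81 to 0.77, adjusted p = 0.983), as its difference was 1.27 with floxed Cebpa and 1.29 without.

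Pooled over the 4 groups, Asns and Psat1 had the highest positive correlation among pairs of the 10 genes. After subtracting group means, the Pearson correlation of their log2 values over the 24 libraries was 0.641, and the remaining pairs of the 10 genes lay between -0.642 (Psph with Slc1a5) and 0.466 (Atf5 with Fgf21). These are descriptions, and the values of a library share its RNA and its depth. Libraries F3 and E2 of Cebpa-KO, and H3 and G2 of those labelled DKO, had the 2 highest Asns values of their group and also the 2 highest Psat1 values. This did not hold in the other groups. There C3 of the libraries labelled Trib1-KO, and B1 of WT, had the lowest Asns and the highest Psat1 of their group. F3 and H3 also had the highest Psph value and the lowest Fgf21 value of their groups, which was noticed after the values were seen. In WT, B3 had the highest Asns, Phgdh and Slc1a5 and the lowest Psph and Chac1.

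**Figure D3:**
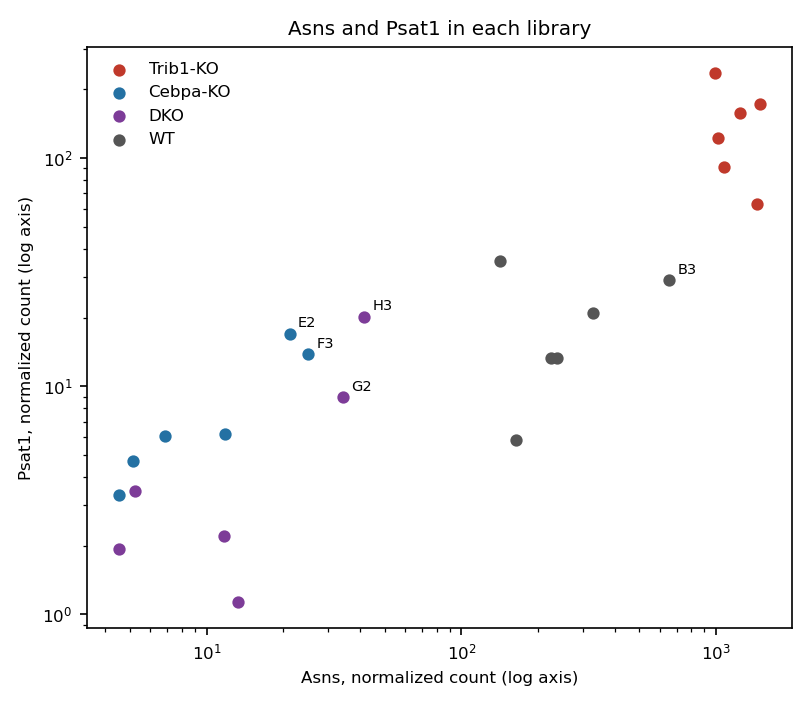
Psat1 (vertical axis) against Asns (horizontal axis) in each of the 24 libraries, both as normalized counts on log axes, coloured by group, with libraries B3, E2, F3, G2 and H3 marked. The 6 libraries labelled Trib1-KO lie at the upper right, and the 12 with floxed Cebpa lie left of every WT library.

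The genes most like each of the 10 over the 24 libraries were taken by Pearson correlation of log2 values among 12576 genes with a mean of at least 10 normalized counts. The 3 closest to Asns were Grm8 (0.966), Slc43a1 (0.962) and Lrtm1 (0.957). Slc43a1, which encodes a transporter of branched-chain and other large neutral amino acids, averaged 489 normalized counts in the libraries labelled Trib1-KO, 54.7 in Cebpa-KO, 54.4 in those labelled DKO and 205 in WT. Closest to Psat1 were Ccnd1 (0.936), the gene of cyclin D1, Cdh18 (0.909) and Asrgl1 (0.905), which encodes an asparaginase. Fgf21 ran closest to Cs (0.945), the gene of citrate synthase, Tmem56 (0.942) and Tubb2a (0.937), and Atf5 to Dtx4 (0.972), Insig2 (0.966) and Stom (0.965). The closest genes were Tspo for Atf4 (0.917), Paqr3 for Slc1a5 (0.883), Celf2 for Mthfd2 (0.822), Fbln2 for Phgdh (0.807), Tmco6 for Psph (0.726) and Kazald1 for Chac1 (0.721). These values have no test, and all of them share the same libraries and the same 4 groups.

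Many other ATF4 target and stress genes were also higher in the libraries labelled Trib1-KO. Of 19 measured genes on that list 10 rose and none fell by limma or at an unadjusted p under 0.05, with a median log2 difference of 0.64. For this list and those below, 11.8% of all genes tested rose and 10.9% fell in that comparison. Against WT, those shares were 4.60% and 5.22% in Cebpa-KO and 2.84% and 3.25% in the libraries labelled DKO. The 4 with the smallest adjusted p were Atf3, a stress-induced transcription factor (5.46 ± 0.39), the lipoprotein receptor gene Vldlr (3.91 ± 0.36), the stress regulator Nupr1 (2.85 ± 0.31) and Ddit3, the gene of CHOP (1.15 ± 0.14), with limma adjusted p from 1.0e-10 to 6.1e-07. Atf3 averaged 601 ± 176 normalized counts in the libraries labelled Trib1-KO against 12.7 ± 4.02 in WT (SD, n = 6 each). In Cebpa-KO 1 of the 19 rose and 1 fell. The riser was Cebpg, a C/EBP partner of ATF4, at 3192 ± 312 normalized counts against 1146 ± 122 in WT (log2 difference 1.48 ± 0.08, adjusted p = 5.5e-12), and the other was the cysteine synthesis gene Cth (-0.63 ± 0.17, adjusted p = 0.0159). Against WT, 2 rose and 3 fell in the libraries labelled DKO, with Cebpg at 1.41 ± 0.08 and Vldlr at -1.66 ± 0.36. Against the libraries labelled Trib1-KO 3 rose and 9 fell there, where 14.6% of all genes tested rose and 15.7% fell. The element letters TGATGNAA were in promoters of 6 of 17 listed genes with a window, namely Trib3, Nupr1, Atf3, Vldlr, Pycr1 and Herpud1. They were also in 3 of 12 amino acid transporter genes and 5 of 13 cytosolic aminoacyl-tRNA synthetase genes with a window, against 4.51% of all genes with a promoter. Of the other lists below, they were in 0 of 12 serine and one-carbon enzyme genes and 0 of 7 asparagine, glutamine and glutathione genes. They were in 0 of 11 genes of eIF2α kinases and partners, 0 of 14 chaperone and degradation genes, 0 of 9 PPARα targets and 0 of 4 FGF21 receptor genes. Trib3 is among the promoters from which the letters were known. The 3 transporter genes, Slc7a11, Slc7a7 and Slc1a4, rose in the libraries labelled Trib1-KO. The 5 synthetase genes, Aars, Gars, Iars, Tars and Yars, did not rise there in the fit reported. Whether the letters go with the rise was not tested.

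Amino acid transporters moved both ways in the libraries labelled Trib1-KO, where 8 of 17 rose and 3 fell. Slc1a4, which exchanges serine, alanine and other neutral amino acids, averaged 414 ± 53.1 normalized counts there against 89.2 ± 36.7 in WT (log2 difference 2.29 ± 0.22, limma adjusted p = 1.4e-08). Slc7a11, the cystine importer, was at 4.51 ± 0.61 and Slc7a8 at 1.09 ± 0.14, while the glutamine transporter gene Slc38a3 was at -0.84 ± 0.10. In Cebpa-KO and in the libraries labelled DKO 1 of the 17 fell and none rose by limma, and 0 and 1 rose at an unadjusted p under 0.05. The 1 was Slc43a1 both times (-1.91 ± 0.22 and -1.97 ± 0.22, adjusted p = 1.6e-06 and 2.0e-06).

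**Figure D4:**
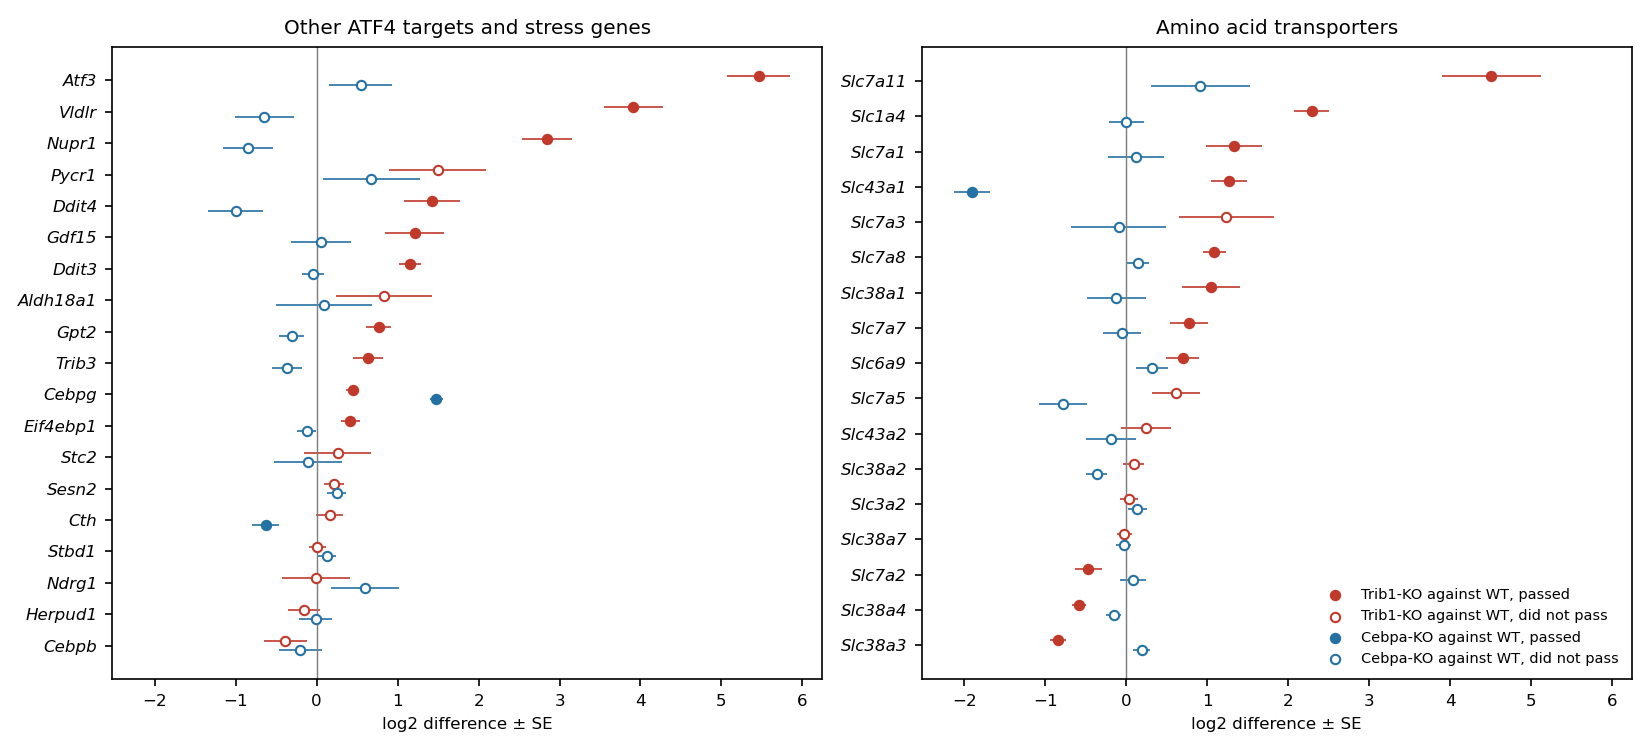
Log2 difference from WT of 19 other ATF4 target and stress genes (left panel) and of 17 amino acid transporters (right panel). Both panels show labelled Trib1-KO in red and Cebpa-KO in blue, with the standard error as a horizontal line. Filled points passed an adjusted p of 0.05. Atf3, Vldlr, Nupr1, Slc7a11 and Slc1a4 lie far to the right in the libraries labelled Trib1-KO, and Slc43a1 is the transporter that passed in Cebpa-KO.

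Among serine and one-carbon enzymes outside the 10 genes more fell than rose where Psat1 was high. In the libraries labelled Trib1-KO 1 of 17 rose and 7 fell, among them Aldh1l1 (-0.99 ± 0.12), Shmt2 (-0.69 ± 0.09) and Mthfd1 (-0.60 ± 0.10), all enzymes of folate metabolism, with limma adjusted p from 1.2e-06 to 4.7e-05. In Cebpa-KO 3 rose and 3 fell. Gldc, the glycine decarboxylase of the glycine cleavage system, averaged 879 ± 360 normalized counts there against 4404 ± 1409 in WT (log2 difference -2.37 ± 0.25, adjusted p = 5.6e-07). Cbs was at -0.69 ± 0.15 and Shmt2 at 0.38 ± 0.09.

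Among partners in asparagine, glutamine and glutathione metabolism, 3 of 10 rose and 4 fell in the libraries labelled Trib1-KO. Gclm, a subunit of the enzyme that starts glutathione synthesis (-0.70 ± 0.07), and Chac2 (-0.79 ± 0.12) and Ggct (-0.84 ± 0.15), which act in glutathione breakdown, were lower there, and Gss, glutathione synthetase, was higher (0.56 ± 0.10), with limma adjusted p from 6.9e-08 to 1.3e-04. In Cebpa-KO 3 rose and 1 fell. Aspg, an asparaginase gene, was lower there (-0.86 ± 0.10, adjusted p = 1.5e-06), and Ggct was higher (0.75 ± 0.15, adjusted p = 0.00124).

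The genes upstream of ATF4 were called about as often as genes in general. Of 14 genes for eIF2α kinases, their regulators, eIF2B subunits and the eIF2α phosphatase subunits, 2 rose and 1 fell in the libraries labelled Trib1-KO, where 22.7% of all genes tested changed. Eif2ak2, the kinase PKR, was at 0.48 ± 0.09 and Eif2ak3, the kinase PERK, at 0.57 ± 0.19 (limma adjusted p = 5.0e-04 and 0.0317), the second lost without A3, B1, B2, C2, C3, D1 or D2 (adjusted p up to 0.0819). The third was Eif2ak1, the kinase HRI, at -0.17 ± 0.06 (adjusted p = 0.0322), which turned to 0.09 (adjusted p = 0.256) on values scaled without the Mup genes, where 5 of the 14 rose and none fell. The Eif2ak1 call was also lost without A2, A3, B1, B2, B3, C1, C2 or D2 (adjusted p up to 0.0821). In Cebpa-KO 1 of the 14 fell, Eif2b2 (-0.44 ± 0.12, adjusted p = 0.0214, and 0.0653 without E3), and in the libraries labelled DKO none passed by limma or at an unadjusted p under 0.05.

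Of 20 cytosolic aminoacyl-tRNA synthetase genes, many of which ATF4 is known to raise, 1 rose and 2 fell in the libraries labelled Trib1-KO. Sars was at 0.32 ± 0.06, Mars at -0.35 ± 0.08 and Dars at -0.21 ± 0.05 (limma adjusted p = 5.7e-04, 0.00137 and 0.00557). With values scaled without the Mup genes, which moved the median of all genes by 0.24 in this comparison, 8 rose and none fell, Mars was at -0.10 and Dars turned to 0.04 (adjusted p = 0.436 and 0.659). Of 16 chaperone and degradation genes of the endoplasmic reticulum, which the ATF6 and XBP1 arms of the unfolded protein response drive, 2 fell and none rose by limma or at an unadjusted p under 0.05. They were Dnajc3 (-0.25 ± 0.09) and Syvn1 (-0.54 ± 0.19), at adjusted p = 0.0452 and 0.0453, and both calls were lost on values scaled without the Mup genes (0.0001 and -0.29, adjusted p = 1 and 0.294), where 1 of the 16 rose and none fell. Leaving out 1 library ended the Dnajc3 call in 11 of 24 fits and the Syvn1 call in 13, with adjusted p up to 0.134 and 0.127. In Cebpa-KO 1 gene fell on each list (Aars at -0.34 ± 0.09 and Edem1 at -0.33 ± 0.09, adjusted p = 0.0189 and 0.0218). The Aars call was lost without A3 or B2 and the Edem1 call without A1, E2 or F2 (adjusted p up to 0.0525 and 0.0614). Neither list had a gene that passed in the libraries labelled DKO by limma, with 1 lower on each list at an unadjusted p under 0.05.

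PPARα, the fatty acid sensor of the fasting liver, is another known driver of Fgf21 there. Of 14 PPARα targets and partners 3 rose and 8 fell in the libraries labelled Trib1-KO, with Cyp4a10 at 1217 normalized counts against 11187 in WT (log2 difference -3.29 ± 0.36, limma adjusted p = 1.5e-07). Creb3l3, a partner factor, was at -0.74 ± 0.06, while the pantetheinase gene Vnn1 was at 1.85 ± 0.30. In Cebpa-KO 2 of the 14 rose and 1 fell, and in the libraries labelled DKO 1 fell and none rose by limma, with 1 higher at an unadjusted p under 0.05. Of 5 FGF21 receptor genes, Fgfr3 (-0.82 ± 0.12) and Fgfr4 (-0.51 ± 0.11) fell and Fgfr2 rose (0.77 ± 0.24) in the libraries labelled Trib1-KO (limma adjusted p = 7.4e-06, 0.00157 and 0.0188). Fgfr1 (-0.63 ± 0.35) and Klb (0.31 ± 0.15) did not pass there (limma adjusted p = 0.226 and 0.157). The Fgfr4 call was lost on values scaled without the Mup genes (-0.26, adjusted p = 0.0914), where 2 of the 5 rose and 1 fell, and the Fgfr2 call was lost without A2 (0.66, adjusted p = 0.0541). None of the 5 passed in Cebpa-KO or in the libraries labelled DKO by limma, with 1 lower in Cebpa-KO at an unadjusted p under 0.05.

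**Figure D5:**
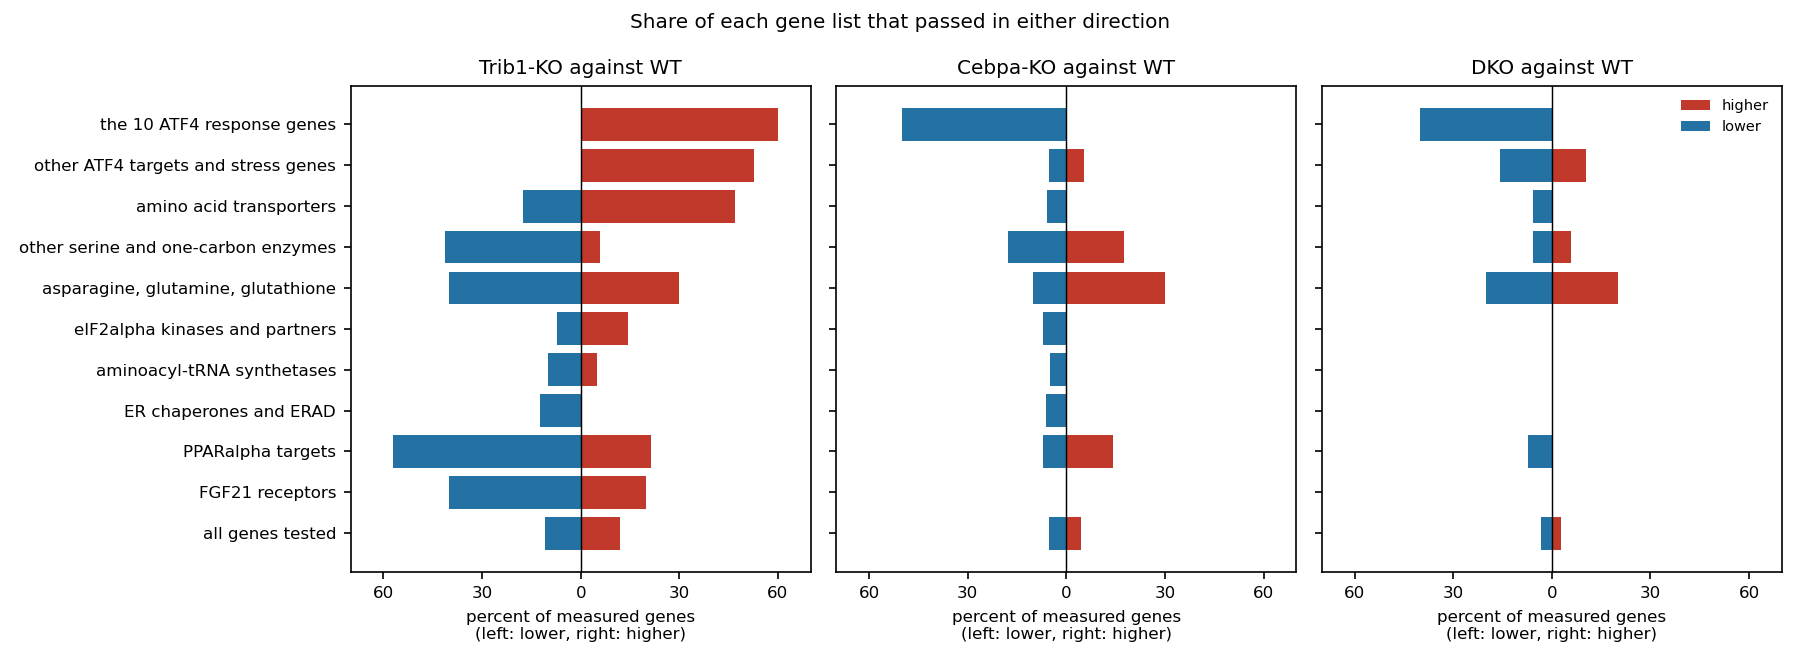
Share of the measured genes of each list that passed an adjusted p of 0.05 against WT, in percent, with genes that rose to the right of 0 and genes that fell to the left, for labelled Trib1-KO, Cebpa-KO and labelled DKO. The lowest bar is all 19810 genes tested, of which 11.8% rose in the libraries labelled Trib1-KO and 5.22% fell in Cebpa-KO.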

How the data were processed

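The deposited table holds 1 value per gene and library for 24 libraries, in the unit signal. Judged from the values, these are estimated counts that the authors scaled to a common level with a size factor for each library. The submitters' processing notes name Salmon, DESeq2 and GRCm38.p6, and give no versions or settings. Libraries were stranded and poly(A)-selected, per the labels' protocols. Whole reads could not be recovered, since 60.7 to 66.0% of low values came within 0.02 of a whole multiple of the library's step (0.686 to 1.46), so the planned count test gave way to its written alternative. The steps put the depth at an estimated 18640877 to 34286860 reads, which is a rough figure.

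Values were analysed as log2(value + 1), so differences of low genes are understated, with limma 3.58.1 in R 4.3.3 and an intensity trend, for 19810 genes that averaged at least 1. The model had the 4 group means, and each of 6 comparisons called genes at a limma adjusted p under 0.05 (Benjamini-Hochberg over all genes tested). Intervals are 95% limma intervals, and tests are 2-sided. The fit was tested on simulated data. Coordinates come from GENCODE M21, in which 54050 of 54432 identifiers (99.3%) were found, and promoter sequences from RefSeq (GRCm38.p6). The 10 genes and all lists were chosen with earlier results of these data known. From each list, up to 4 called genes with the smallest adjusted p were named per comparison described, and for likeness the 3 highest correlations; some genes that this rule names are not reported here. Replicates are libraries of separate mice, with no cohort on the columns and no cohort term. The numbers 1 to 3 in the column names showed no pairing of libraries. Same-numbered libraries of different groups had deviations correlated at 0.013 on average over 72 pairs, against -0.006 over 144 other pairs. That check does not bear on the cohorts, which the columns do not name. Alternatives were other pseudocounts (0.5 and 8), filters (none and a mean of 10), scalings (without Mup genes, quantile), fits (only the groups compared, array weights, robust variance, a block for the column number) and leaving out each library.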

Additional observations from a re-analysis of the deposited data

Results flagged for a closer look

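Dixon's test for a single high or low library was run on normalized counts before the log step. Of 40 groups of 6 libraries, 4 for each of the 10 genes, it singled out 7. The rate for normally distributed values is about 1 in 20, and low counts can be skewed. The genes share the same libraries, so the 7 are not independent of each other. WT library B3 accounted for 3 of them, as the highest of its group for Asns (653 normalized counts), Phgdh (22.8) and Slc1a5 (181). The other libraries singled out were F2 of Cebpa-KO, high for Phgdh (20.7), C2 of those labelled Trib1-KO, high for Slc1a5 (252), E3 of Cebpa-KO, low for Slc1a5 (15.5), and B2 of WT, high for Fgf21 (68.1). In 3 genes the difference made by floxed Trib1 was not the same with and without floxed Cebpa, by the limma interaction. The interaction was -0.62 on the log2 scale for Atf5, -3.54 for Psat1 and -1.98 for Fgf21.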

How the results depend on the processing

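Of the 60 counts of the 10 genes under other settings 55 stayed within 1.5 times their value. In the libraries labelled DKO against WT the count fell to 2 without the filter on low values and to 2 with only the groups compared, and against Cebpa-KO it fell to 0 with a pseudocount of 8, without the filter and with only the groups compared. Leaving out each library in turn gave 6 to 7 genes in the libraries labelled Trib1-KO, 5 to 6 in Cebpa-KO and 2 to 4 in those labelled DKO against WT (2 without G1 or G3), 0 to 1 against Cebpa-KO, 6 to 8 against those labelled Trib1-KO, and 3 to 4 for the interaction. A replicate block for the column number changed no count of the 10 genes (6 in the libraries labelled Trib1-KO against WT), but called 61 genes of the whole table for the libraries labelled DKO against Cebpa-KO. That comparison had 40 calls as reported, 25 without the filter, 18 with only the groups compared and 18 to 63 with 1 library left out, and the block turned 40% of calls higher into 55.7%.

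Scaling without the Mup genes moved the median of all genes by 0.24 in the libraries labelled Trib1-KO against WT, by -0.27 in those labelled DKO against them and by -0.23 in the interaction. Of all calls, 84.6% were then higher in the first (51.8% as reported), 18.1% in the second (48.3%) and 17.2% in the interaction (50.5%), and 35.5% in Cebpa-KO (46.9%) and 35.6% in the libraries labelled DKO (46.7%) against WT. No called difference of the 10 genes changed direction under any setting or library left out. Differences that had not passed did, as did 3 called genes of the lists, and the cause was not tested. Psph in the libraries labelled DKO against WT was 0.0099 with quantile normalization, and Mthfd2 there was -0.0020 with a pseudocount of 8 and -0.0312 without the Mup genes. In the interaction Psph was -0.0992 without the Mup genes, and Mthfd2 and Slc1a5 were 0.1093 and 0.0885 with quantile normalization. Without the Mup genes Eif2ak1, Dars and Dnajc3 were 0.0852, 0.0402 and 0.0001 in the libraries labelled Trib1-KO against WT. With 1 library left out, Psph spanned -0.0196 to 0.4712 in the libraries labelled Trib1-KO against WT, Chac1 spanned -0.0866 to 0.4602 in Cebpa-KO against WT, and Phgdh -0.7279 to 0.3239 in those labelled DKO against Cebpa-KO. In the libraries labelled DKO against WT the spans were -0.2753 to 0.2155 for Psph, -0.1694 to 0.1104 for Mthfd2, -0.4647 to 0.0644 for Chac1 and -0.2382 to 0.1406 for Slc1a5, and in the interaction -0.0768 to 0.4139 for Psph, -0.2333 to 0.0802 for Mthfd2 and -0.2580 to 0.1225 for Slc1a5. Low counts limit Phgdh, with 6 of 24 libraries listed at 0, and Asns, Psat1 and Fgf21 in the groups with floxed Cebpa.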
